A study of Arabidopsis thaliana with 12 samples.

Results

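The 5 genes described here encode enzymes of glycolysis, of fermentation and of the reaction that runs the last step of glycolysis backwards. They are PPDK (AT4G15530), TPI (AT3G55440), GAPC2 (AT1G13440), PDC2 (AT5G54960) and the lactate dehydrogenase gene AT4G17260. They were chosen by locus, each has 1 probe set that the annotation pairs with that gene alone, and they stand among 13356 genes tested in the same way. Transcripts were measured in leaves of Arabidopsis thaliana on 12 arrays, with 3 biological replicates in each of 4 groups. The groups were the mutant atg5 after 48 h of submergence, the wild type col after 48 h of submergence, atg5 without submergence (control, 0 h) and col without submergence (control, 0 h). Plants were 28 days old, all had grown under a day of 12 h light and 12 h dark, and the submerged ones stood 10 cm below the water surface. ATG5 is a protein needed to build autophagosomes, the vesicles that carry cell contents to the vacuole for breakdown. The labels do not give the allele of atg5, and the level of ATG5 itself was not analysed here. The defining root marker PYK10 lay between 2.2 and 2.35 on every array, where 2.2 is the lowest value that the deposited scale allows, and the mesophyll markers RCA, LHCB4.1 and LHCB4.2 lay between 13.45 and 14.53 on the control arrays.

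Glycolysis splits sugars into pyruvate and gains ATP and NADH on the way. When a submerged leaf runs short of oxygen, NADH can no longer be oxidized by the mitochondria, and cells turn to fermentation, in which pyruvate is either reduced to lactate or decarboxylated to acetaldehyde and then reduced to ethanol. Triosephosphate isomerase (TPI) and the cytosolic glyceraldehyde-3-phosphate dehydrogenase GAPC2 are steps of glycolysis, pyruvate decarboxylase (PDC2) opens the ethanol branch and lactate dehydrogenase makes lactate. Pyruvate, orthophosphate dikinase (PPDK) turns pyruvate into phosphoenolpyruvate (PEP), against the direction of glycolysis, and in Arabidopsis it is known for its induction in ageing leaves, where carbon and nitrogen are moved out of the leaf.

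The first question is how leaves of each genotype responded to 48 h under water. PPDK rose by far the most of the 5, whereas TPI, GAPC2 and AT4G17260 fell in both genotypes and PDC2 fell in atg5 and was not called in col, a difference between the genotypes whose own test did not pass. Values are log2 probe set signals, a difference of 1 being a 2-fold change, and differences are given with the standard error (SE) of the linear model. The model takes 1 estimate of a gene's spread from all 4 groups. An SE or interval need therefore not match the spread of the groups compared. The words rose and fell are kept for genes that limma's moderated test gave an adjusted p under 0.05 (Benjamini-Hochberg over all 13356 genes, two-sided). The number of arrays limits the precision of every value. RNA from a whole leaf sample was measured, so fewer cells of a type and less RNA per cell cannot be told apart.

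PPDK had log2 signals of 12.90, 12.78 and 12.86 in submerged atg5, against 6.94, 6.17 and 6.99 in atg5 controls. In submerged col the values were 12.51, 12.89 and 12.79, against 6.15, 5.50 and 5.73 in col controls. All 6 submerged arrays lay far above all 6 controls, and the submerged groups overlapped each other. PPDK rose by 6.15 ± 0.24 in atg5 (limma adjusted p = 1.98e-07) and by 6.94 ± 0.24 in col (adjusted p = 1.01e-07), which is 70.9-fold and 123-fold. Among the 13356 genes, this rise ranked 79 from the top in atg5 and 57 in col. The spread of PPDK was smaller under water, with an SD of 0.06 in submerged atg5 and 0.46 in its controls, and of 0.20 in submerged col and 0.33 in its controls. With only the groups compared in the model, the SE of PPDK between genotypes was 0.31 in control and 0.12 at 48 h, against 0.24 in the shared model.

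**Figure D1:**
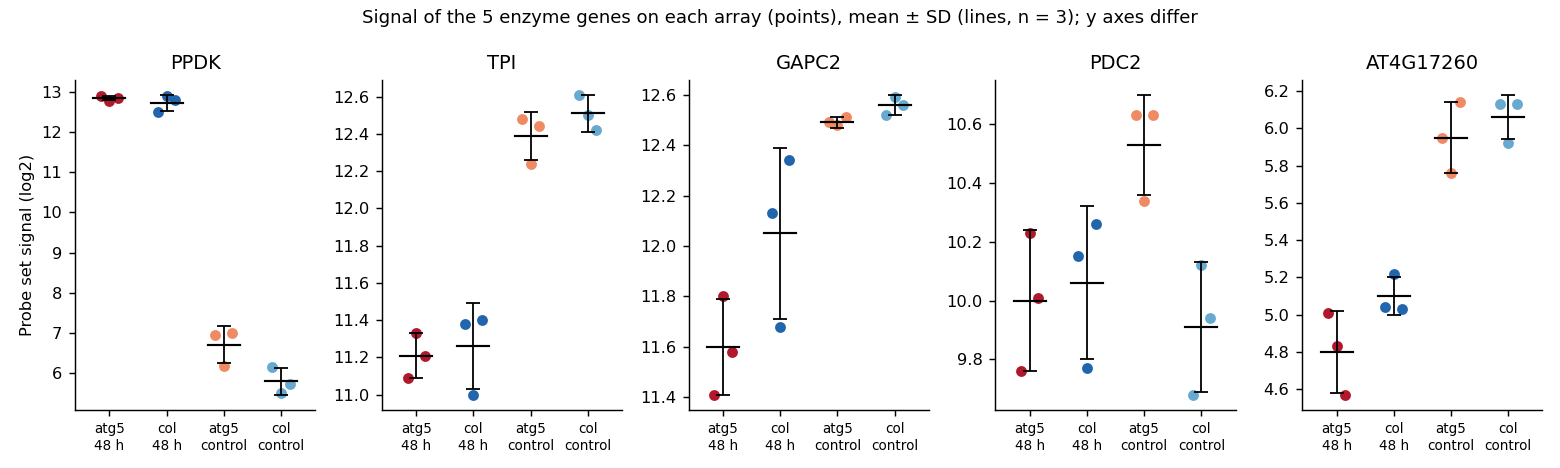
Log2 probe set signal of the 5 genes on each of the 12 arrays (points), with the mean and SD of the 3 arrays of a group (lines); the vertical axes differ between genes. PPDK is high on all 6 submerged arrays, TPI, GAPC2 and AT4G17260 are low on them, and PDC2 stands highest in atg5 controls.

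TPI, which interconverts the 2 triose phosphates made when fructose-1,6-bisphosphate is split, was lower on all submerged arrays. It had 11.09, 11.33 and 11.21 in submerged atg5, against 12.48, 12.24 and 12.44 in atg5 controls. In submerged col it had 11.38, 11.0 and 11.40, against 12.61, 12.50 and 12.42 in col controls. The lowest control array, at 12.24, was still above the highest submerged one, at 11.40. TPI fell by 1.18 ± 0.12 in atg5 (limma adjusted p = 4.86e-05) and by 1.25 ± 0.12 in col (adjusted p = 3.05e-05). The signal left under water was 44.1% of the control in atg5 (95% interval 36.5% to 53.4%) and 42.2% in col (34.8% to 51.0%).

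GAPC2, which oxidizes glyceraldehyde-3-phosphate and yields the NADH that fermentation later uses up, fell less. Its signals were 11.41, 11.80 and 11.58 in submerged atg5, against 12.49, 12.48 and 12.51 in atg5 controls. In submerged col they were 12.13, 11.68 and 12.34, against 12.52, 12.59 and 12.56 in col controls. The controls of both genotypes were very tight, with an SD of 0.02 in atg5 and 0.04 in col, and no submerged array reached them. GAPC2 fell by 0.90 ± 0.15 in atg5 (limma adjusted p = 0.00123) and by 0.51 ± 0.15 in col (adjusted p = 0.026). The signal left was 53.7% in atg5 (42.1% to 68.6%) and 70.4% in col (55.2% to 89.9%). The col call is not firm: it ended with each array centred on its median (-0.20, adjusted p = 0.162), with only the col arrays in the model (adjusted p = 0.113), with the replicate number as a block (adjusted p = 0.0505) and without any 1 of the 3 col control arrays (adjusted p between 0.0536 and 0.0721). Without col 48 h replicate 2, the array with the lowest GAPC2 signal of its group, the difference in col was -0.32 (adjusted p = 0.0436).

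PDC2, which removes carbon dioxide from pyruvate to give acetaldehyde, had signals of 9.76, 10.23 and 10.01 in submerged atg5, against 10.63, 10.34 and 10.63 in atg5 controls. In submerged col it had 10.15, 9.77 and 10.26, against 9.68, 10.12 and 9.94 in col controls, so the col groups overlapped. The difference was -0.54 ± 0.18 in atg5 (limma adjusted p = 0.0393), a fall, and 0.15 ± 0.18 in col (adjusted p = 0.617), where the 95% interval of -0.26 to 0.55 leaves room for a change either way. The fall in atg5 ended in 9 of 19 alternatives, among them median centring (-0.22, adjusted p = 0.209), only the atg5 arrays in the model (adjusted p = 0.0587), the replicate block (adjusted p = 0.0683) and the loss of any 1 of 6 arrays (adjusted p between 0.0539 and 0.138). These arrays were atg5 48 h replicates 1 and 3, atg5 control replicates 1 and 3, col 48 h replicate 1 and col control replicate 3. With median centring the col difference was 0.45 (adjusted p = 0.0206), under a scaling that called 10885 of the 13356 genes in col, 8394 of them higher. With quantile normalization PDC2 differed by -0.58 in atg5 (adjusted p = 0.0492) and by 0.11 in col (adjusted p = 0.827).

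AT4G17260 encodes lactate dehydrogenase, which reduces pyruvate to lactate and restores NAD+. Its signals were 5.01, 4.83 and 4.57 in submerged atg5, against 5.95, 5.76 and 6.14 in atg5 controls. In submerged col they were 5.04, 5.22 and 5.03, against 6.13, 5.92 and 6.13 in col controls. No submerged array reached a control, and none of the 12 arrays was at the lowest value of the scale. AT4G17260 fell by 1.15 ± 0.13 in atg5 (limma adjusted p = 0.000108) and by 0.96 ± 0.13 in col (adjusted p = 0.000295). The signal left was 45.2% in atg5 (36.6% to 55.8%) and 51.3% in col (41.5% to 63.3%).

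In atg5, 1 of the 5 genes rose and 4 fell, where 40.3% of all genes tested were called. In col, 1 rose and 3 fell, where 42.5% of all genes were called. Submerged and control groups did not overlap for 5 of the 5 in atg5, with 48.8% of all genes as background, and for 4 of 5 in col, with 46.7%. The median difference of the 5 was -0.90 in atg5 and -0.51 in col, beside a median of 0.00 over all genes in both. A call of a single gene was common in these arrays. The shares and the median over all genes include genes at the lowest value of the scale, where a change can hardly be seen. Such genes lower the shares and draw the median towards no change. Only 8078 genes lay above that value on all 3 arrays of submerged atg5, and 7998 in submerged col. The 5 genes lay above it on every array. Shares among detected genes alone are not given here, and this limit holds for all background shares below. Centring each array on its median adds 0.32 to the differences in atg5 and 0.30 in col over all genes. The median of the submerged arrays is lower. Their upper quartile is not, at 7.34 to 7.40 on submerged arrays and 7.23 to 7.28 on controls. Centring thus adds to bright genes a shift that the upper quartile does not show. With this centring PPDK rose by 6.47 in atg5 and 7.24 in col, TPI fell by 0.86 in atg5 and by 0.94 in col, and AT4G17260 fell by 0.83 in atg5 and by 0.66 in col, all still called, and no direction of the 5 in either submergence comparison turned.

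**Figure D2:**
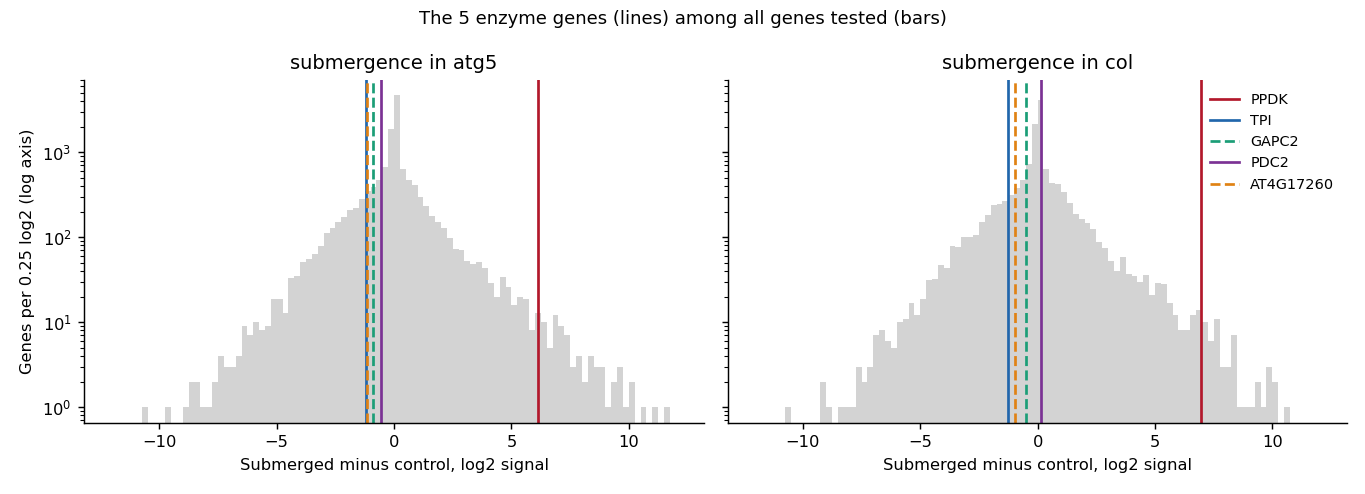
Histogram of the differences between submerged and control arrays in log2 signal over all 13356 genes tested (bars of width 0.25, logarithmic count axis), in atg5 (left) and col (right), with the 5 genes as vertical lines. PPDK lies in the upper tail of both, while TPI, GAPC2, PDC2 and AT4G17260 lie within the bulk of the genes.

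The second question is whether the genotypes differed before or during submergence. None of the 5 genes was called in either comparison of atg5 with col by limma, where 2.34% of all genes were called in control (1.37% higher and 0.973% lower) and 3.42% at 48 h (1.84% higher and 1.58% lower). At an unadjusted p under 0.05 there were 2 in control, PPDK and PDC2, and 1 at 48 h, GAPC2. PPDK differed by 0.91 ± 0.24 in control (adjusted p = 0.107), the 3 atg5 controls lying at 6.17 or above and the 3 col controls at 6.15 or below. PDC2 differed by 0.62 ± 0.18 in control (adjusted p = 0.134), with 10.34 or above in atg5 controls and 10.12 or below in col controls. The phloem marker SWEET11 moved the same way, with 12.23 to 12.61 in atg5 controls and 11.24 to 11.72 in col controls (0.91 ± 0.23, adjusted p = 0.096), and its part in these differences was not tested. Control groups did not overlap for 3 of the 5 (PPDK, PDC2 and GAPC2), with 17.7% of all genes as background.

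The PPDK difference in control lay between 0.76 and 1.17 over the 19 alternatives, and in 17 of them it was not called. It passed without genes of low signal (adjusted p = 0.0391) and without atg5 control replicate 2, the lowest of its group (1.17, adjusted p = 0.0305). At 48 h, PPDK differed by 0.12 (95% interval -0.43 to 0.66), TPI by -0.05 (-0.33 to 0.22) and PDC2 by -0.06 (-0.47 to 0.34), so differences of the size of the submergence response of PPDK or TPI lie outside these intervals. GAPC2 differed by -0.45 ± 0.15 at 48 h (adjusted p = 0.177), and without col 48 h replicate 2 by -0.64 (adjusted p = 0.0276). AT4G17260 differed by -0.29 (-0.60 to 0.01) at 48 h, where its groups, 5.01 or below in atg5 and 5.03 or above in col, just failed to overlap, as did those of 16.2% of all genes.

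The interaction asks whether the response of atg5 differed from that of col. None of the 5 was called by limma (0.599% of all genes were), and 2 had an unadjusted p under 0.05. For PPDK the difference between the responses, atg5 minus col, was -0.79 ± 0.34 (unadjusted p = 0.0458, adjusted p = 0.419) and for PDC2 it was -0.68 ± 0.25 (unadjusted p = 0.025, adjusted p = 0.314). For both genes atg5 controls lay above col controls, while the submerged groups overlapped. The interaction of SWEET11 was -1.16 ± 0.33 (adjusted p = 0.176), and its part in those of PPDK and PDC2 was not tested. GAPC2 (-0.39, 95% interval -0.89 to 0.11), AT4G17260 (-0.18, -0.61 to 0.25) and TPI (0.07, -0.32 to 0.46) were not called either. Over the alternatives the adjusted p of PPDK lay between 0.139 and 0.657 and that of PDC2 between 0.192 and 0.537. The comparisons share arrays: the controls of a genotype enter its submergence response, the control comparison and the interaction.

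**Figure D3:**
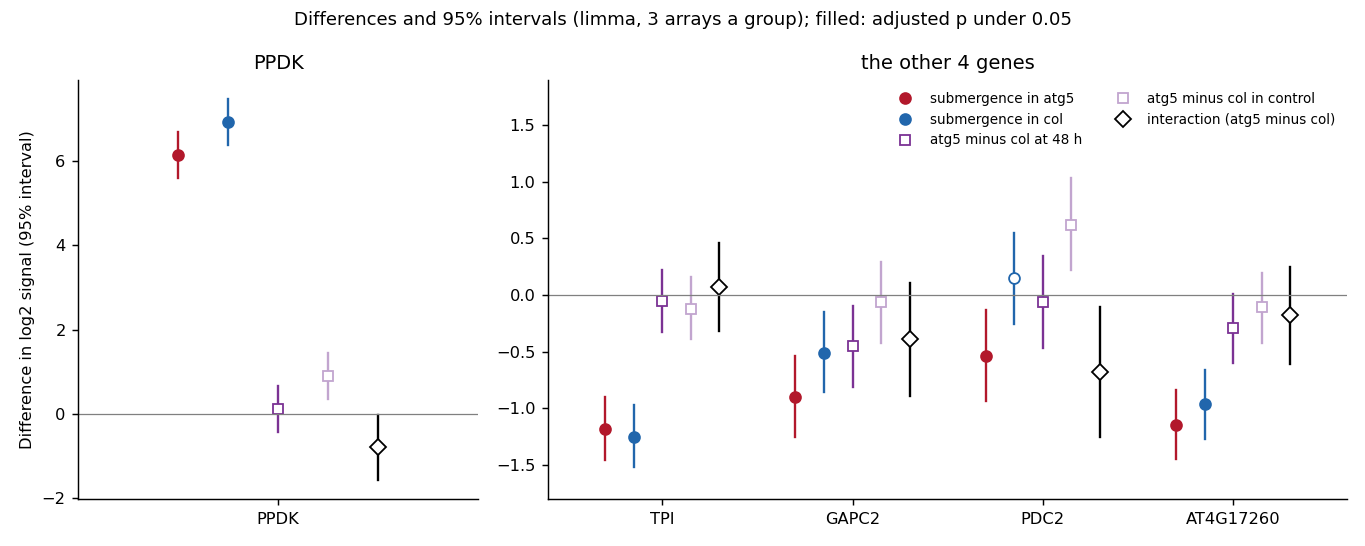
Differences in log2 signal with 95% intervals for the 5 genes in the 5 comparisons, PPDK on its own scale at the left; filled symbols mark an adjusted p under 0.05 in limma. The responses to submergence are filled except that of PDC2 in col, and no symbol of a genotype comparison or of the interaction is filled.

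The order of the 4 group means shows how the genes vary among themselves. For PPDK the order from the highest was submerged atg5 (12.85), submerged col (12.73), atg5 control (6.70) and col control (5.79), and the first 2 did not differ beyond their spread. TPI, given from the lowest, had submerged atg5 (11.21), submerged col (11.26), atg5 control (12.39) and col control (12.51), and neighbours of like treatment overlapped. GAPC2 ran, also from the lowest, from submerged atg5 (11.60) and submerged col (12.05) to atg5 control (12.49) and col control (12.56), and the submerged groups overlapped through 1 array, col 48 h replicate 2. AT4G17260 had the same order, with submerged atg5 (4.80), submerged col (5.10), atg5 control (5.95) and col control (6.06), and its control groups overlapped. PDC2, from the highest, had atg5 control (10.53) above submerged col (10.06), submerged atg5 (10.00) and col control (9.91), and the last 3 overlapped.

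Within the submerged groups, TPI, GAPC2 and PDC2 kept the same order of arrays. In submerged atg5 all 3 were lowest on replicate 1 and highest on replicate 2, with deviations from the group mean of -0.12, -0.18 and -0.24 on replicate 1 and 0.12, 0.20 and 0.23 on replicate 2. Of the 8078 genes above the lowest value on all 3 of these arrays, 37.5% were lowest on replicate 1 and 43.8% highest on replicate 2. In submerged col all 3 were lowest on replicate 2, with deviations of -0.26, -0.37 and -0.29, and highest on replicate 3, with 0.14, 0.29 and 0.20. Of 7998 genes there, 33.8% were lowest on replicate 2 and 32.8% highest on replicate 3. PPDK ran the other way in atg5, highest on replicate 1 and lowest on replicate 2. In col, PPDK was highest on replicate 2. AT4G17260 did not share the order of TPI, GAPC2 and PDC2 either: it was highest on atg5 replicate 1 (0.21) and on col replicate 2 (0.12).

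In col, 3 mesophyll markers moved with the order of TPI, GAPC2 and PDC2. The phloem and guard cell markers shared it only in part. RCA (rubisco activase), LHCB4.1 and LHCB4.2 (light-harvesting proteins) all had their lowest col 48 h signal on replicate 2, with deviations of -0.47, -0.48 and -0.83, and their highest on replicate 3, with 0.46, 0.40 and 0.88. The phloem marker SWEET11 was also lowest on col replicate 2 (-0.43), with 0.23 on replicate 1 and 0.20 on replicate 3. In submerged atg5 its lowest deviation was on replicate 1 (-0.34) and its highest on replicate 3 (0.32). The guard cell marker FMA was lowest on col replicate 1 (-0.68) and highest on replicate 3 (0.94), and lowest on atg5 replicate 2 (-0.09). In submerged atg5, RCA was lowest on replicate 1 and highest on replicate 2, while LHCB4.1 and LHCB4.2 were lowest on replicate 3 and highest on replicate 2. The summed linear signal of these 3 markers, of 5 written in the list, ran from 24200 to 26000 in submerged atg5 and from 12500 to 24500 in submerged col, against 52500 to 55100 in atg5 controls and 51500 to 54400 in col controls. SWEET11 (1 of 3 phloem markers measured) lay between 11.84 and 12.49 in submerged atg5 and between 11.99 and 12.64 in submerged col, with the control values given above. It differed by -0.26 in atg5 (adjusted p = 0.484) and rose by 0.90 in col (adjusted p = 0.0117). The guard cell marker FMA (1 of 3) lay between 3.50 and 5.25 on the 12 arrays, and no epidermis marker was analysed here. The part of these shifts in the results for TPI, GAPC2 and PDC2 was not tested. Without col 48 h replicate 2 the difference in col was -0.32 for GAPC2 (adjusted p = 0.0436), against -0.51 with it, -1.12 for TPI (adjusted p = 4.28e-05), 6.86 for PPDK (adjusted p = 1.21e-06), -1.02 for AT4G17260 (adjusted p = 0.000855) and 0.29 for PDC2 (adjusted p = 0.254).

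**Figure D4:**
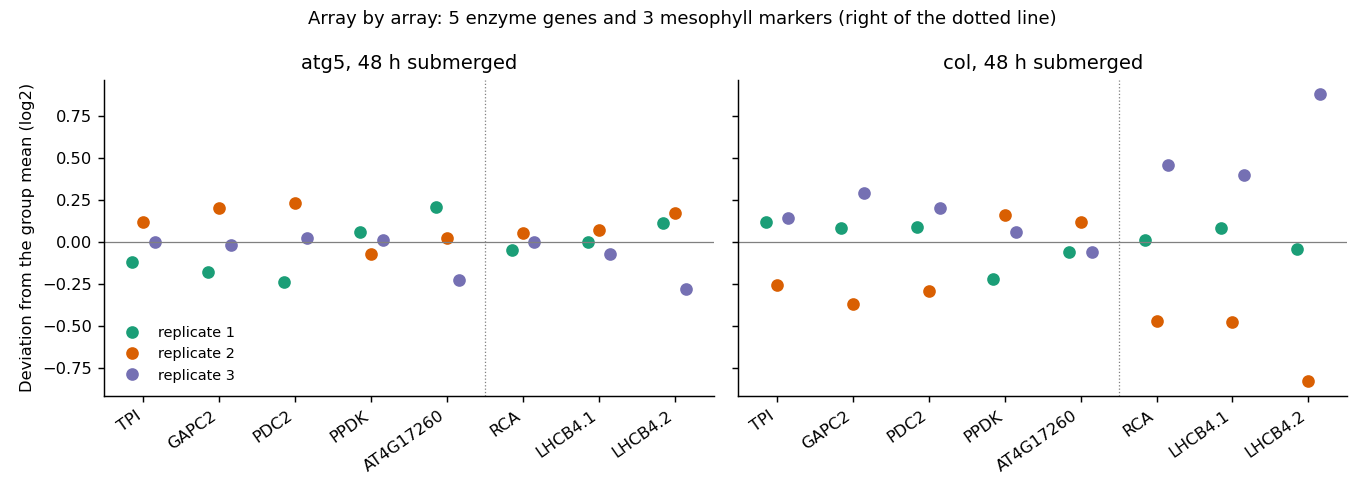
Deviation of each of the 3 submerged arrays of a group from the group mean in log2 signal, for atg5 (left) and col (right), coloured by replicate, for the 5 genes and, beyond the dotted line, 3 mesophyll markers. TPI, GAPC2 and PDC2 are lowest on atg5 replicate 1 and on col replicate 2, and in col the markers share that order.

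The other measured genes of central carbon metabolism set these values in context. Of 143 loci in 6 lists, 39 had a probe set that the annotation pairs with that gene alone, the 5 genes among them. These are called measured here. Of the 22810 probe sets, 8730 are paired with no gene and 503 with several, and these were left out. The other loci may have probe sets among them, so the array itself need not lack these loci. In atg5, 10 of the 39 rose and 14 fell, and in col 11 rose and 15 fell, with medians of 0.00 and -0.03. Of these 39, 3 lay at the lowest value of the scale on all 12 arrays and 2 on some of them, so they can show little. As background, 19.1% of all genes rose in atg5 and 21.2% fell, and in col 20.4% rose and 22.1% fell.

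In upper glycolysis, from hexose phosphates to triose phosphates, 5 of 27 genes were measured, of which 1 rose and 3 fell in atg5 and 0 rose and 4 fell in col. The median difference was -1.13 in atg5 and -0.94 in col. AT1G20950, an alpha subunit of the pyrophosphate-dependent phosphofructokinase (PFP), had the largest fall of the list and fell by 3.19 ± 0.26 in atg5 (limma adjusted p = 1.16e-05) and fell by 3.37 ± 0.26 in col (adjusted p = 7.48e-06). AT1G76550, the other PFP alpha subunit gene, rose by 1.08 ± 0.19 in atg5 (adjusted p = 0.00141) and differed by 0.42 in col (adjusted p = 0.118). The test of that contrast between genotypes did not pass (interaction 0.66, adjusted p = 0.382). The cytosolic phosphoglucose isomerase gene AT5G42740 fell by 1.13 in atg5 and 0.81 in col.

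In lower glycolysis, from triose phosphates to pyruvate, 10 of 29 genes were measured, and 2 rose and 4 fell in each genotype. The median was -0.19 in atg5 and -0.25 in col, both smaller than the shift that median centring adds. Of these 10 genes, however, 2 lay at the lowest value of the scale on all arrays and 1 on some of them. Their differences lay between 0.0 and 0.14 in atg5 and at 0.0 in col. They draw the medians towards no change, so the medians do not give the size of the response of the detected genes. The falls included AT1G56190, a plastid phosphoglycerate kinase, which fell by 1.88 in atg5 and fell by 1.92 in col. Pyruvate kinase makes pyruvate and ATP from PEP, the reaction that PPDK reverses, and its called genes went both ways. AT5G08570 fell by 1.37 ± 0.14 in atg5 (limma adjusted p = 5.09e-05) and by 1.58 ± 0.14 in col (adjusted p = 1.86e-05). AT5G63680 rose by 1.61 ± 0.19 in atg5 (adjusted p = 0.000106) and by 1.76 ± 0.19 in col (adjusted p = 5.49e-05). AT5G56350 rose by 1.46 in atg5 and 1.25 in col.

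By array, the signals of the first pair of these kinase genes were as follows. AT5G08570 had 8.80, 8.97 and 8.87 in submerged atg5, against 10.25, 10.29 and 10.21 in its controls. AT5G63680 had 8.82, 8.68 and 9.13 in submerged atg5, against 7.23, 7.22 and 7.34 in its controls. Submerged and control arrays of col did not overlap for these genes either.

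Around pyruvate and PEP, 5 of 21 genes were measured and 2 rose and 2 fell in each genotype. Besides PPDK they encode parts of the mitochondrial pyruvate dehydrogenase complex, which feeds pyruvate into the tricarboxylic acid cycle. The acetyltransferase (E2) gene AT1G54220 fell by 2.04 ± 0.30 in atg5 (limma adjusted p = 0.000443) and fell by 2.91 ± 0.30 in col (adjusted p = 4.28e-05). AT3G13930, another E2 gene, fell by 1.53 in atg5 and 1.33 in col. LTA3 (AT3G52200), a further one, rose by 0.34 in atg5 and 0.56 in col, and the atg5 call ended in 4 of 19 alternatives. MAB1 (AT5G50850), for the E1 beta subunit, differed by -0.18 in atg5 (adjusted p = 0.115) and -0.08 in col (adjusted p = 0.504), and its sign turned with median centring. AT3G13930 was also lower in atg5 than in col, with a difference of -0.34 in control (adjusted p = 0.042) and -0.54 at 48 h (adjusted p = 0.00633), and these calls ended in 14 and 1 of 19 alternatives.

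The fermentation list had only 3 measured genes of 14, so it says little about that branch as a whole. PDC2 and AT4G17260 fell in atg5 and AT4G17260 in col, as described. ALDH2C4 (AT3G24503), an aldehyde dehydrogenase gene, differed by 0.01 in atg5 (adjusted p = 1) and -0.34 in col (adjusted p = 0.222). The genes of sucrose synthase and alcohol dehydrogenase were not analysed here. Of sucrose and starch use, 3 of 28 were measured and 2 fell in each genotype: DPE1 (AT5G64860), the disproportionating enzyme of starch breakdown, fell by 3.59 in atg5 and fell by 3.56 in col, and PWD (AT5G26570), phosphoglucan water dikinase, fell by 2.32 in atg5 and fell by 2.54 in col.

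In the tricarboxylic acid cycle, 13 of 24 genes were measured. In atg5, 5 rose and 1 fell, and in col 7 rose and 2 fell, with medians of 0.43 and 0.47. AT4G26910, for the E2 subunit of 2-oxoglutarate dehydrogenase, rose by 1.29 in atg5 and 1.33 in col, and SDH2-2 (AT5G40650), an iron-sulfur subunit of succinate dehydrogenase, rose by 1.05 in atg5 and 0.83 in col. AT5G65750, for E1 of 2-oxoglutarate dehydrogenase, rose by 0.90 in col (adjusted p = 0.02), a call that ended in 3 of 19 alternatives, and differed by 0.73 in atg5 (adjusted p = 0.0537), which passed in 5 of 19. The falls were AT5G23250, for an alpha subunit of succinyl-CoA ligase, which fell by 1.49 in atg5 and by 1.4 in col, and AT3G55410, the other E1 gene, which fell by 0.37 in col, a call that ended in 7 of 19 alternatives. AT5G55070, the other E2 gene of this enzyme, was lower in atg5 than in col, with a difference of -0.61 in control (adjusted p = 0.0452) and -0.72 at 48 h (adjusted p = 0.0224). These calls ended in 12 and 5 of 19 alternatives.

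**Figure D5:**
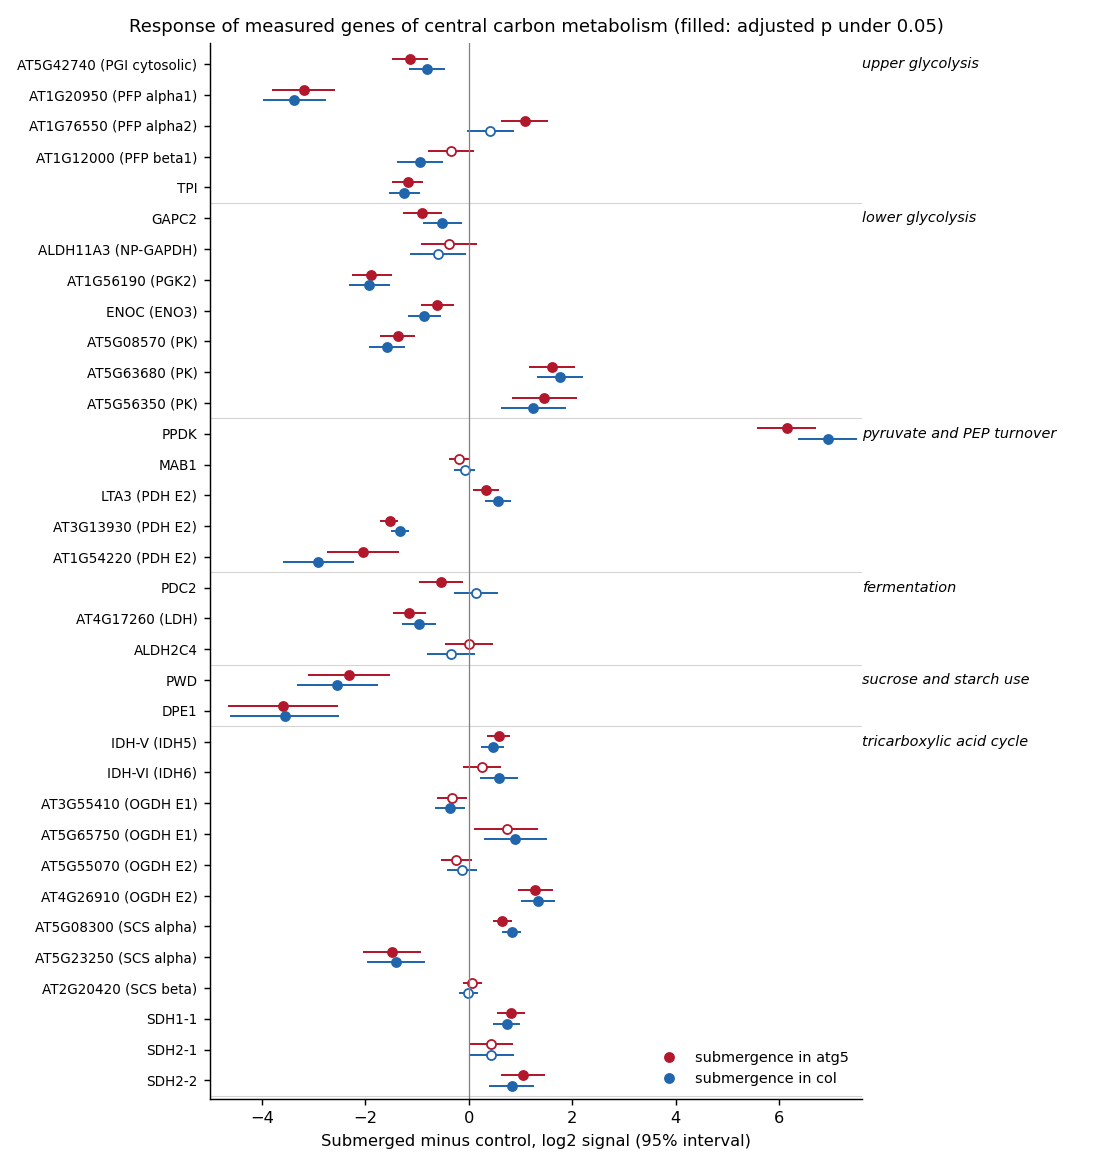
Differences between submerged and control arrays in log2 signal with 95% intervals for 34 measured genes of the 6 lists, atg5 in red above col in blue; filled points passed with an adjusted p under 0.05 in limma. Genes at the lowest value on 10 or more arrays are left out. PPDK stands apart at the right, and AT1G20950, DPE1, PWD and AT1G54220 lie farthest to the left.

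Genes whose pattern over the 12 arrays was most like that of a member were ranked by Pearson's r of log2 signals, as a description. The arrays fall into submerged and control ones, and a high r with PPDK or TPI reflects that split first of all. For PPDK the closest were GRXC1 (AT5G63030), a glutaredoxin gene, with r = 0.998 and differences of 2.63 in atg5 and 3.0 in col, and AT4G34180, with r = 0.997. For TPI they were AT1G29530 (r = 0.995) and AT1G28400 (r = 0.994), which differed by -3.39 and -2.27 in atg5 and by -3.30 and -2.29 in col. An r of at least 0.95 was reached by 1177 genes with PPDK and by 1047 with TPI.

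For the other members far fewer genes came as close. With AT4G17260 the number at 0.95 or above was 217, led by AT5G65990 (r = 0.979) and AT4G32605 (r = 0.978), and with GAPC2 it was 34, led by AT3G14240 (r = 0.991) and AT1G22690 (r = 0.982). AT3G14240 had a difference of -3.75 in atg5 and -2.25 in col. PDC2 had 0 genes at that level, and its nearest were AT5G63710 (r = 0.909) and AT1G26550 (r = 0.895). Both had a higher signal in atg5 than in col controls, by 0.74 and 0.43.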

How the data were processed

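Affymetrix arrays were hybridized with leaf RNA, 1 array per sample. The authors deposited log2 probe set signals. Per the submitters' processing notes MAS5 and GCRMA were used, with no role, order or version. That the scale is log2 follows from the value range, which starts at 2.2 on all arrays, and between 29.3% and 32.3% of an array's values lie within 0.05 of it, where a change cannot be seen. Of 22810 probe sets, 13513 are paired with 1 gene, and the brightest stood for the gene where there were several, which left 13356 genes. Roles of genes given by locus alone come from general knowledge of Arabidopsis, since the annotation names only the locus.

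All 12 arrays were fitted with 1 mean per group in limma 3.58.1 (R 4.3.3), where the residual degrees of freedom were 8 and the prior ones 0.488. The fit was tested on simulated data. Alternatives were quantile normalization, median centring, leaving out dim genes (mean under the 40th percentile), all one-gene probe sets, a replicate block, only the groups compared, a variance prior with a trend, and leaving out each array. Members and lists were chosen with earlier results of these data known. Named genes are the members, the 3 largest rises and falls of each list among those called, those called between genotypes, and the 2 most like each member. MAB1 and ALDH2C4 were added after their values were seen.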

Additional observations from a re-analysis of the deposited data

How the results depend on the processing

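Of 470 values of the 5 genes recomputed over 19 alternatives, 444 kept their direction and their side of the threshold. In 15 a call ended, all of them GAPC2 in col or PDC2 in atg5, and in 4 a call began. The other 7 turned in sign without a call: at 48 h, leaving out 1 array moved PDC2 over -0.21 to 0.06 and TPI over -0.18 to 0.02, and the TPI interaction ran from -0.07 to 0.14. Of the 5 genes, the number called under a change of 1 array stayed between 4 and 5 in atg5 and between 3 and 4 in col, and between 0 and 1 in each genotype comparison. It was 1 for the control comparison without dim genes. With median centring 4 were called in col, PDC2 in place of GAPC2.

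The background counts moved more. Median centring called 10906 genes in atg5 and 10885 in col (8394 higher and 2491 lower in col, 8480 and 2426 in atg5) and 134 for the interaction. Without dim genes, 695 were called at 48 h and 156 for the interaction. With only the groups compared, 13 were called in each genotype comparison. Leaving out 1 array gave 124 to 344 genes in control, 179 to 751 at 48 h and 51 to 186 for the interaction. The cause was not tested. The labels do not say whether samples of the same replicate number were paired. The deviations of same-numbered arrays correlated at between -0.48 and 0.10, and those of differently numbered arrays at between -0.18 and 0.35. With so few arrays these values cannot settle whether samples were paired. With the replicate block, 159 genes were called in control, 229 at 48 h and 34 for the interaction. The 3 arrays per group limit all of these, and low signals near the floor of the scale show no falls.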

Other observations

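The array also carries 3 control probe sets labelled GAPDH, for the 3′ end, the middle and the 5′ end of the transcript. The annotation used here does not say which GAPDH gene they detect. Within each genotype all 3 were lower on submerged than on control arrays without overlap, while submerged col overlapped atg5 controls. Submerged and control groups did not overlap for 48.8% of all genes in atg5 and 46.7% in col. The 3 sets are labelled as parts of 1 transcript, so they are not independent of each other. All 3 were also lower in atg5 than in col without overlap in both treatments, whereas for GAPC2 the genotypes overlapped at 48 h but not in control. The genotypes did not overlap for 17.7% of all genes in control and 16.2% at 48 h. The 3′ probe set had 11.25, 11.14 and 11.20 in submerged atg5, against 11.87, 11.88 and 11.71 in submerged col. Its controls had 11.68, 11.78 and 11.78 in atg5, against 12.12, 12.18 and 12.20 in col. The mean differences between atg5 and col were -0.62 at 48 h and -0.42 in control for the 3′ end, -0.65 and -0.51 for the middle, and -0.61 and -0.44 for the 5′ end. The probe set of GAPC2 differed by -0.45 at 48 h and by -0.06 in control. A genotype difference of this kind was not particular to GAPDH. The control probe set for the 3′ end of actin had 10.88, 10.92 and 10.75 in submerged atg5, against 11.09, 11.15 and 11.22 in submerged col, and its controls had 11.64, 11.76 and 11.74 in atg5, against 12.0, 11.88 and 12.05 in col. The actin set for the middle was lower in atg5 without overlap in control, at 11.22, 11.11 and 11.27 against 11.55, 11.38 and 11.42 in col, and its genotypes met at 10.39 at 48 h. The 5′ actin set overlapped between genotypes in both treatments, and the 3 ubiquitin sets overlapped in control. At 48 h the ubiquitin set for the middle went the other way and was higher in atg5 without overlap. It had 12.72, 12.59 and 12.79 in atg5, against 12.41, 12.43 and 12.41 in col, while the 3′ and 5′ ubiquitin sets overlapped. The control probe sets were not part of the fit, and these differences were not tested.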
